A study of Gallus gallus with 6 samples.

Results

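Adipose tissue of the chicken was set directly against liver on 1 Affymetrix array of each. The arrays are 2 of the 6 in the study and were chosen by their sample titles. The 38439 probe sets that are not Affymetrix controls, of 38535 in all, make up the comparison. Both tissues came from male Arbor Acres chickens, a meat-type line aged 49 days (7 weeks), from which 21 tissues were isolated. Total RNA was extracted with Trizol and labelled as biotin cRNA, with no treatment named for either tissue. The other 4 arrays are tissue mixes (mix 1 to mix 4) whose content the labels do not name, and they serve here only as a range beside the values of single genes. The study set out to profile major chicken tissues and to find genes that are high in adipose tissue and liver. The labels' description text names adipose tissue for every sample, so the titles were used. No source used here says how many birds went into each sample.

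In birds the liver, rather than the fat depot, is the principal site of new fatty acid synthesis. It packs the lipid into very low density lipoprotein, and lipoprotein lipase on the capillary wall of the adipose tissue frees the fatty acids for storage as triglyceride. The avian liver also makes glucose, bile acids and most plasma proteins, and disposes of nitrogen by building purines and breaking them down to uric acid. Adipose tissue is a mixture of adipocytes with capillaries, fibroblasts, immune cells and extracellular matrix, so in bulk RNA fewer cells of a type and less RNA per cell cannot be told apart.

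The values are microarray signals (intensities) from 1 array a side. No difference below therefore has a replicate error or a test, and all are given by size. Each array was divided by its 2% trimmed mean and multiplied by 500, which multiplied the adipose values by 2.44 and the liver values by 4.295. All signals below are on that scale. Differences are adipose minus liver in log2(signal + 35.2), where 35.2 is the 25th percentile of both arrays pooled. A probe set passed if its signal on either array lay above 116.8, the median of both arrays pooled, and 4-fold (a log2 difference of 2) was the size called higher or lower. The median difference was 0.12 over the 22262 probe sets that passed. The hybridisation spike-ins, which the standard protocol adds in equal amounts, had 27 probe sets, several to a transcript. Their mean difference was -0.47 (SD 0.22 over probe sets) after this scaling and 0.35 in the deposited values. The ratio of the 3′ to the 5′ probe set, which rises as RNA breaks down, was 1.13 on adipose and 1.85 on liver for actin. It was 1.33 and 1.56 for EF1A, but ran the other way for GAPDH, at 1.24 and 1.05. The part of RNA quality in the differences was not tested. The brightest signal was 44614 on adipose and 69189 on liver, so a probe set at the upper end of both arrays would show a difference of -0.63.

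Both arrays carried the marker genes of their labelled tissue. The adipose array gave 26919.8 for PLIN1, the coat protein of the adipocyte's lipid droplet, where the liver array gave 539.8 and the mixes 297 to 2046 (difference 5.55). FABP4, the adipocyte fatty acid binding protein, gave 44614 on adipose and 467 on liver (6.47), and LPL gave 25383 and 138 (7.19). The hormone ADIPOQ (adiponectin) gave 10336 and 205 (5.43), and PPARG, the master regulator of fat cell differentiation, 3296 and 82 (4.83). These 5 markers were far brighter on adipose than on liver, though mixes reached 12740 for ADIPOQ. CIDEC, which fuses lipid droplets, separated the tissues poorly, with 18191 on adipose, 9919 on liver and 262 to 2442 on the mixes (0.87). On the liver side ALB (albumin) gave 64550.4 on liver and 167 on adipose (-8.32), and FGB, a fibrinogen chain, 62064 and 54.4 (-9.44). APOB, the scaffold of very low density lipoprotein, gave 31636 and 36.1 (-8.79), APOH 59548 and 49 (-9.47), and AHSG (fetuin-A) 47784 and 2.4 (-10.31). HNF4A, a nuclear receptor that maintains hepatocyte identity, gave 2307 and 63.4 (-4.57). All 6 liver markers measured here were more than 4-fold lower on adipose, and 5 of them lay below the pooled median there; ALB alone was above it. SERPINC1 was not analysed here.

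Adipose and liver differed at least 4-fold in 2755 of the 22262 probe sets that passed. Of these 1501 were higher on adipose (6.74%) and 1254 were lower (5.63%). Reduced to 1 probe set for each of 13009 named genes, of which 10359 passed, 669 genes were at least 4-fold higher on adipose (5.14%) and 728 lower (5.6%). The balance between the directions rests on the scaling: 54.5% of the called probe sets were higher on adipose here, against 72.2% when the arrays were levelled on the spike-ins and 82.2% with the deposited values. The extreme differences lay on the liver side. At 16-fold 97 genes were higher and 264 lower, and at 64-fold 17 were higher and 112 lower. By count the extreme genes were thus liver genes.

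**Figure D1:**
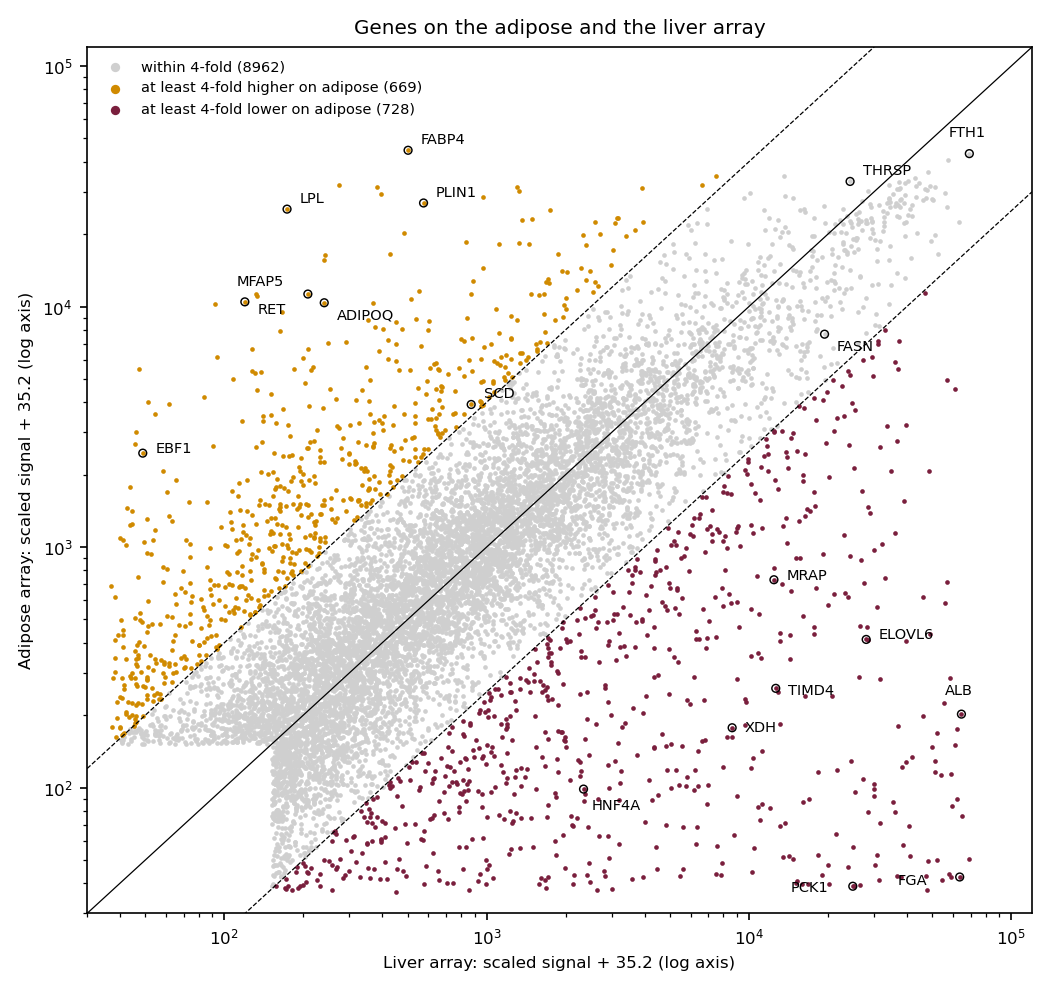
Scaled signal plus 35.2 of each named gene that passed, on the liver array (horizontal, log axis) and on the adipose array (vertical, log axis). The solid line marks equal signal and the dashed lines 4-fold; 669 genes lie above and 728 below the dashed lines, and the lower right corner, with FGA and ALB, reaches farther from the line of equal signal than the upper left, with LPL and FABP4.

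The 12 genes that led adipose were LPL, RBP7, MXRA5, C12orf75, FABP4, RET, CDH13, SPON2, FABP3, GREM1, ANXA1 and NPR3, with differences from 7.19 down to 6.08. They hold lipid handling genes (LPL, FABP4, FABP3 and the retinol binding protein RBP7), cell surface receptors (RET, CDH13, NPR3) and secreted matrix or growth factor binding proteins (MXRA5, SPON2, GREM1). MXRA5 gave 5462 on adipose against 12 on liver and 855 to 2036 on the mixes. GREM1, an antagonist of bone morphogenetic proteins, gave 3986 against 15.9, and ANXA1 (annexin A1) 29268 against 362 (6.20). Since the liver signals of most of these genes lie near or under the pooled median, the ratio has only a lower bound when the dimmer side is set to that median. LPL, whose liver signal is above that median, was 184-fold brighter on adipose, RET at least 89.3-fold and MXRA5 at least 46.8-fold. The 12 genes that led liver were FGA, LBFABP, FGG, APOA4, ORM1, AHSG, AMBP, FABP1, A2M, CL2, FETUB and PIT54, with differences from -10.55 to -9.73. All but FABP1, LBFABP and CL2 are secreted into plasma, from knowledge of these proteins in birds or mammals, and CL2 has no role that can be stated with certainty. FGA gave 63573 on liver and 7.3 on adipose, which is at least 544-fold lower on adipose by the same bound.

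The mixes place these differences. Of the 669 genes higher on adipose, 434 (64.9%) were above all 4 mixes on adipose, and 531 (79.4%) were below all 4 on liver. For 316 genes (47.2%) both held. Among the 728 lower genes, liver was above all mixes for 562 (77.2%), adipose was below all of them for 330 (45.3%), and both held for 241 (33.1%). Among the 8962 passing genes within 4-fold, adipose was above all mixes for 17.6% and liver for 22.1%. A gene called higher on adipose was more often below the mixes on liver than above them on adipose. The 4-fold rule itself favours such positions.

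The gene lists spread widely around the shares over all named genes, which are 5.14% higher and 5.6% lower with a median difference of -0.02. Adipocyte identity genes had a median of 2.39, with 9 of 18 measured members higher and 2 lower. Fibroblast and stroma markers had a median of 3.03 (13 of 16 higher, 0 lower) and matrix glycoproteins 1.93 (22 of 45 higher, 0 lower). At the other end stood plasma carriers and inhibitors at -8.29 (15 of 17 lower), coagulation at -5.53 (17 of 24 lower, 2 higher), bile acid synthesis at -3.89 (18 of 23 lower) and drug and steroid metabolism at -2.97 (18 of 28 lower, 1 higher). The lists of fatty acid, triglyceride, lipid droplet and lipoprotein genes lay between and held called members on both sides. Cholesterol synthesis had 5 of 17 members lower and 0 higher. Among all called genes 119 of the 669 higher and 221 of the 728 lower belong to a list.

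**Figure D2:**
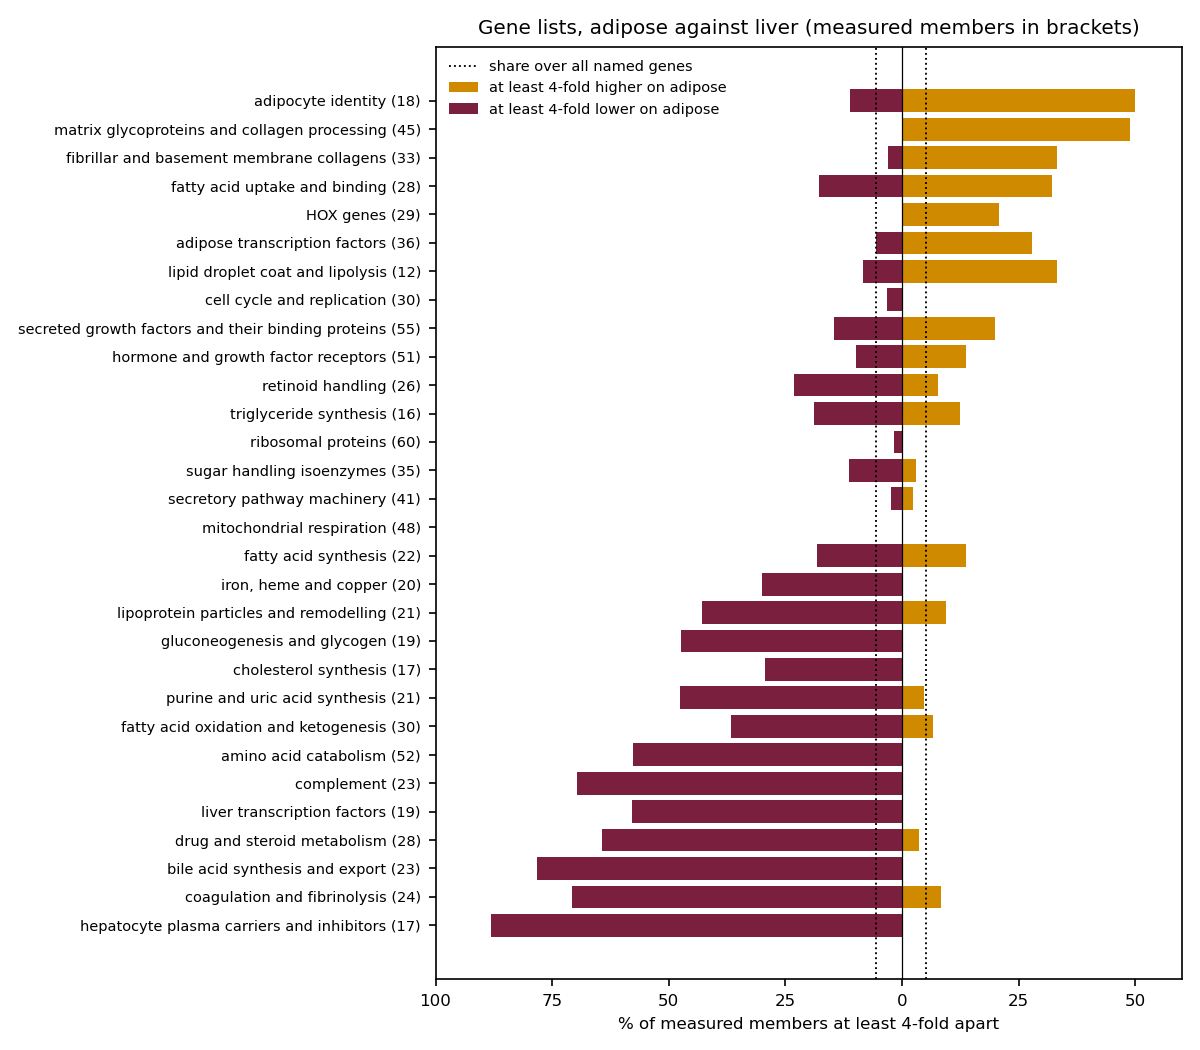
Share of the measured members of each gene list that were at least 4-fold higher (right, gold) or lower (left, dark red) on adipose than on liver, ordered by the list's median difference. Dotted lines mark the shares over all named genes, 5.14% and 5.6%. The top lists are adipocyte and matrix genes, and the bottom lists plasma proteins, coagulation and bile acid genes. Lists of fatty acid, triglyceride, lipid droplet and lipoprotein genes carry bars on both sides, and cholesterol synthesis on the lower side alone.

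Uptake and binding of fatty acids divided the tissues by paralog. Of 28 measured genes 9 were higher on adipose and 5 lower, with a median of 1.17. LPL hydrolyses triglyceride in lipoproteins, and GPIHBP1 anchors it on the capillary wall; GPIHBP1 gave 912 on adipose, 15.5 on liver and 189.6 to 322 on the mixes (4.22). VLDLR, the receptor for very low density lipoprotein, gave 2532 and 498 (2.27). The caveola genes were all higher on adipose: CAV1 gave 3898 against 26.2 (6.0), CAV2 18218 against 1085 (4.03) and PTRF (cavin-1) 11190.1 against 835 (3.69), whereas the muscle form CAV3 did not pass on either array. Fatty acid translocase CD36 was bright on both arrays, at 29510.3 and 10076 (1.55), and above all mixes (1947 to 6514).

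The fatty acid binding proteins, small cytosolic carriers, showed the sharpest division. Of 8 measured genes with a FABP symbol 4 were higher on adipose and 2 lower. The higher genes included FABP4, FABP3 and FABP5: FABP3 gave 31357 against 347 (6.36) and FABP5 20111 against 450.5 (5.37). FABP1 (liver type) gave 14.9 on adipose and 52117 on liver (-10.02), and LBFABP, the liver basic form, 7.1 and 58649 (-10.44). FABP7 was also lower on adipose (472 against 2340.1, -2.23). FABP3 was bright on every mix (7356 to 14641), with adipose above that range and liver far below it. LBFABP did not exceed 635 on any mix. The enzymes that activate fatty acids to coenzyme A esters followed suit. SLC27A2, a very long chain acyl-CoA synthetase, gave 15129 on liver and 5.1 on adipose (-8.55), and ACSL5 10128 and 317 (-4.85). ACSL1 gave 16539 on adipose and 5737 on liver (1.52) and ACSL4 4257 and 1504 (1.48), both under 4-fold on the brightest probe set. The highest passing probe set of each exceeded 4-fold, at 2.76 for ACSL1 and 2.14 for ACSL4.

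Genes of new fatty acid synthesis were called in both directions, and 3 genes of its upstream steps were brighter on liver. Of 22 genes 3 were higher on adipose and 4 lower, with a median of -0.86; the spike-in scaling gave 4 higher and 3 lower, and the deposited values 5 and 3. SLC25A1, which exports citrate from mitochondria, gave 33644 on liver and 3152 on adipose (-3.40). ACLY, which splits that citrate into acetyl-CoA, gave 16028 and 1848 (-3.09). ACACA, the acetyl-CoA carboxylase of cytosolic synthesis, gave 1310.3 and 249.9 (-2.24), against 243 to 287 on the mixes. All 3 were brighter on liver, but ACACA was under 4-fold with the deposited values, the spike-in scaling and the pseudocount at the median, and the other probe set of ACLY gave -1.41. The next enzyme, fatty acid synthase FASN, was within 4-fold at 19390.3 on liver and 7641 on adipose (-1.34), and both arrays were above the mixes (957 to 2538). ELOVL6, which lengthens palmitate, differed most in the list, with 27958 on liver, 378 on adipose and 439 to 2011 on the mixes (-6.08).

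Other genes in the list ran the other way. ACSS2 gave 2074 on adipose and 691 on liver (1.54, with 2.66 on its other probe set), and ELOVL1 3542 and 1096 (1.66). ACACB, the mitochondrial carboxylase whose product restrains fatty acid oxidation, gave 1924 on adipose, 147 on liver and 56.6 to 297 on the mixes (3.42). ME3, a mitochondrial malic enzyme, gave 2221 and 198 (3.28), whereas the cytosolic ME1, which supplies NADPH for synthesis, gave 1330.5 and 2724 (-1.01). SCD, the desaturase that makes oleate, gave 3882 on adipose and 838 on liver (2.16), and both exceeded the mixes (15.6 to 100). THRSP (Spot 14), a lipogenic regulator, was bright on both at 33096 and 24269 (0.45), against 126 to 1467 on the mixes. SCD, THRSP and FASN were thus above every mix on both tissues, and of these SCD alone was 4-fold apart between them; its call was lost with quantile normalization. The regulator SREBF1 was faint on both arrays (10.2 and 136, -1.91).

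**Figure D3:**
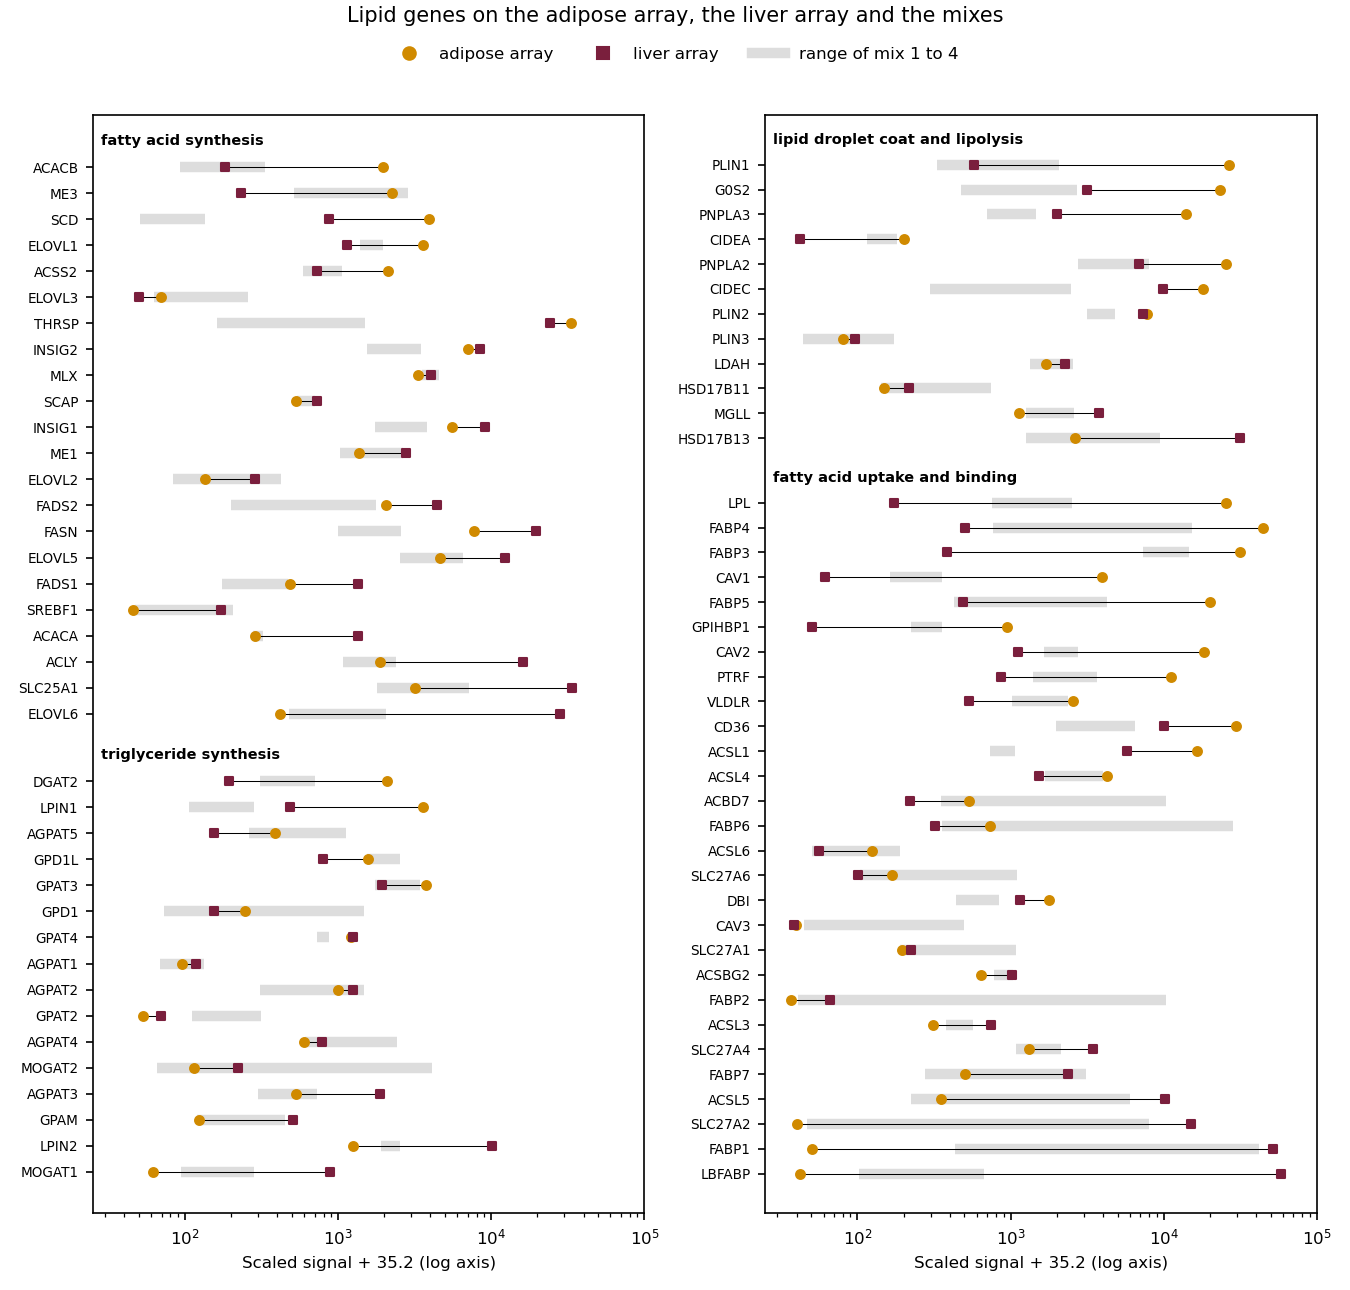
Scaled signal plus 35.2 (log axis) of every measured member of 4 lipid lists on the adipose array (gold circles) and the liver array (dark red squares), with the range of the 4 mixes in grey, ordered by difference within each list. Long connecting lines mark LPL, FABP4 and PLIN1 to the adipose side and ELOVL6, FABP1 and LBFABP to the liver side; THRSP, SCD, FASN and CIDEC lie right of the grey range on both arrays.

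Triglyceride assembly differed by isoenzyme. Of 16 genes 2 were higher on adipose and 3 lower, with a median of -0.32 that turned to 0.60 with the deposited values and also changed sign with the spike-in scaling. DGAT2, which adds the last acyl chain, gave 2032 on adipose and 158 on liver (3.42). The phosphatidate phosphatase LPIN1 gave 3525 and 448 (2.88), both above the mixes (70.3 to 248). Its paralog LPIN2 gave 1205 and 10132 (-3.04). The mitochondrial acyltransferase GPAM (86.9 and 473, -2.06) and the monoacylglycerol acyltransferase MOGAT1 (25.9 and 847, -3.85) were also lower on adipose, GPAM no longer 4-fold with the deposited values, the spike-in scaling or the pseudocount at the median. LPIN1 and LPIN2 lay more than 4-fold apart in opposite directions.

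Among 12 genes of the droplet coat and lipolysis 4 were higher on adipose and 1 lower, with a median of 0.48. Beside PLIN1, these were G0S2, an inhibitor of adipose triglyceride lipase (23358 and 3105, 2.90), PNPLA3 (13905 and 1984, 2.79) and CIDEA (167 and 6.9, 2.27). The lipase itself, PNPLA2, gave 25535 and 6864 (1.89), just under 4-fold. HSD17B13, a liver droplet protein in mammals, was the single lower gene, with 2584 on adipose and 31576 on liver (-3.59). PLIN2, the coat protein found in most cells, was even at 7777 and 7309 (0.09). Monoglyceride lipase MGLL gave 1093 and 3726 (-1.74). In the adipocyte identity list 2 genes went against the name. MRAP, the accessory protein of the melanocortin 2 (ACTH) receptor, gave 12421 on liver, 696 on adipose and 99.3 to 162 on the mixes (-4.09), and the glycerol channel AQP7 gave 1584 and 216 (-2.69). MRAP exceeded every mix on both tissues.

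Of 30 genes of fatty acid oxidation and ketogenesis 11 were lower on adipose and 2 higher, with a median of -1.80. The quantile and the spike-in scaling gave 7 lower, and the deposited values 5 with a median of -0.99. The lower genes included EHHADH, the peroxisomal bifunctional enzyme (1083 on adipose and 23005 on liver, -4.36), the isomerase ECI2 (3189.8 and 39639.5, -3.62), the branched-chain oxidase ACOX2 (166 and 2956, -3.89) and PPARA, the nuclear receptor that drives the pathway (196 and 1682, -2.89). The 2 higher genes both act on ketone bodies. OXCT1, the enzyme that lets tissues other than liver burn ketone bodies, gave 5659 on adipose, 1091 on liver and 4511 to 6032 on the mixes (2.34), and BDH1A, annotated as a hydroxybutyrate dehydrogenase, gave 4036, 624 and 3274 to 5210.5 (2.63). For both, liver lay below every mix and adipose within their range.

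Of 21 measured lipoprotein genes 9 were lower on adipose and 2 higher (LPL and VLDLR), 10 lay between, and the median was -1.13 (-0.32 with the deposited values). APOA4 gave 57824 on liver and 8.5 on adipose (-10.37), and LCAT, which esterifies cholesterol in plasma, 31609.6 and 248 (-6.80). APOA1, which birds make in many tissues, was bright on all 6 arrays, at 25998 on adipose, 57018 on liver and 13752 to 35476 on the mixes (-1.13). The sterol transporter ABCA1 gave 1164 and 325 (1.73). In cholesterol synthesis 5 of 17 genes were lower on adipose and 0 higher (median -1.55). HMGCS1, the first committed enzyme, gave 432 and 28278 (-5.92), ACAT2 1112 and 36114 (-4.98), and PMVK 198 and 1744 (-2.93). All 17 had a negative difference at this scaling. In bile acid synthesis and export 18 of 23 were lower and 0 higher. They include the uptake carriers SLCO1A2 (13.2 and 7867, -7.35) and SLCO1B3 (22.9 and 3154, -5.78), the export pump ABCB11 (27.8 and 2872, -5.53) and NR1H4, the bile acid receptor (9.8 and 2779, -5.97).

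Nitrogen metabolism separated the arrays more than lipid synthesis did by count. Of 52 genes of amino acid catabolism 30 were lower on adipose and 0 higher, with a median of -2.33. MAT1A, which makes S-adenosylmethionine in liver, gave 52058 on liver and 134 on adipose (-8.27). Tyrosine aminotransferase TAT gave 25378 and 61 (-8.05), and the tryptophan enzymes TDO2 and HAAO gave 24516 and 93.7 (-7.57) and 7826 and 8.3 (-7.50). The opposite end of the list held PRODH, proline dehydrogenase, at 518 on adipose and 139.6 on liver (1.66), within 4-fold.

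Purine and uric acid genes were lower on adipose for 10 of 21 members and higher for 1, with a median of -1.80. PRPS2, which makes the ribose phosphate donor, gave 49803 on liver, 112 on adipose and 98.5 to 1121 on the mixes (-8.40). The steps of the synthetic chain followed in order: PPAT, its first committed enzyme, gave 29839.8 and 934 (-4.95), GART 26593 and 433 (-5.83), PAICS 36534 and 2716 (-3.73), ADSL 34636 and 2044 (-4.06), and ATIC 57012 and 4924 (-3.52). Every one of these 6 genes was brighter on liver than on any mix, whereas adipose was within the range of the mixes except for PPAT, where it was just below. SHMT1 (10167 and 85.6, -6.40) and MTHFD1 (23861 and 584, -5.27), which supply one-carbon units for the ring, were also lower on adipose. XDH, which forms uric acid, gave 8597 and 142 (-5.60). ADA (adenosine deaminase) was the single higher gene, with 3466 on adipose and 499.5 on liver (2.71), and HPRT1, which salvages purine bases, gave 1719 and 726 (1.21).

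In gluconeogenesis and glycogen metabolism 9 of 19 genes were lower on adipose and 0 higher (median -1.48). PCK1, the cytosolic phosphoenolpyruvate carboxykinase, gave 24853 on liver and 3.7 on adipose (-9.32), at least 213-fold lower, although 1 mix reached 37172. The mitochondrial PCK2 gave 13135 and 404 (-4.91). FBP1 followed at 46261 and 588 (-6.22), SLC37A4, which carries glucose 6-phosphate, at 5747 and 196 (-4.65), and the liver glycogen synthase GYS2 at 2632 and 54.4 (-4.90). PCK1 in adipose tissue of mammals serves glyceroneogenesis; on this adipose array it had no signal above the pooled median. PPP1R3C, a glycogen targeting subunit, stood at the other end of the list (1673 on adipose and 465 on liver, 1.77).

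Sugar handling isoenzymes differed by form. Of 35 genes 1 was higher on adipose and 4 lower, with a median of -0.48 that became 0.22 with the deposited values, where, as with the spike-in scaling, more members were higher than lower. The glucose transporter of liver, SLC2A2, gave 2311 on liver and 52.9 on adipose (-4.73), and the widespread SLC2A1 499.5 and 1968 (1.91). Fructokinase KHK gave 5404 and 7.6 (-6.99). The liver phosphofructokinase PFKL gave 2876 and 192 (-3.68), while PFKM (42.1 and 231, 1.78) and PFKP (1104 and 2563, 1.19) leaned to adipose within 4-fold. PDK1, which turns down pyruvate oxidation, was the higher gene (3024 on adipose and 656 on liver, 2.15). LDHA gave 5341 and 23909.9 (-2.15), under 4-fold with the deposited, the quantile and the spike-in scaling.

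Plasma proteins gave the widest gap. Of 17 carriers and inhibitors 15 were lower on adipose. ORM1 gave 54635 on liver and 5.9 on adipose (-10.38), A2M 47967 and 14.4 (-9.92), and TTR, which carries thyroid hormone and retinol binding protein, 46124 and 162 (-7.87). The probe set named RBP4 gave 4.1 and 5.6 and passed on neither array, while RBP4A, annotated as another gene of plasma retinol binding protein, gave 94.2 and 51120.1 (-8.63). In coagulation and fibrinolysis 17 of 24 were lower and 2 higher. PLG (plasminogen) gave 51260.1 and 81.3 (-8.78). The 2 higher genes were F13A1 and tissue factor F3. F13A1, a transglutaminase subunit of factor XIII found in macrophages and platelets of mammals, gave 8012 on adipose and 441 on liver (4.08). F3 gave 1446 and 311 (2.10). The cell source of both was not tested. Endothelial VWF gave 11828 and 4481 (1.39).

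Of 23 complement genes 16 were lower on adipose and 0 higher, with a median of -2.57. MBL2 (mannose binding lectin) gave 30658 on liver and 17.1 on adipose (-9.20), C5 20211 and 4.6 (-8.99), and the terminal components C8A 13634 and 36.1 (-7.58) and C8B 18972 and 8.3 (-8.77). CD55, which protects cells from complement, stood at the other end (1039 on adipose and 252 on liver, 1.90). In iron, heme and copper handling 6 of 20 were lower and 0 higher. Among them HPX, the plasma carrier of heme, gave 55736 and 550.5 (-6.57), HMOX1, which opens the heme ring, 14341 and 309 (-5.39), and CP (ceruloplasmin) 8933 and 247 (-4.99). FTH1, the ferritin heavy chain and the brightest gene on liver, gave 69188 there and 43205 on adipose (-0.68), close to the difference between the upper ends of the arrays.

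Retinoid genes again split by paralog. Of 26 measured genes 17 passed, 2 were higher on adipose and 6 lower, with a median of -0.21 (0.39 with the deposited values). With the deposited, the quantile and the spike-in scaling 3 were lower. RBP7, an adipose and endothelial retinol binding protein, gave 31975 on adipose, 239 on liver and 164 to 5161 on the mixes (6.87), while RBP5 gave 2118 and 11091 (-2.37), under 4-fold with those 3 scalings. Of the enzymes that make retinoic acid, ALDH1A3 gave 4082 and 232 (3.94) and ALDH1A1 619.5 and 14416 (-4.46), more than 4-fold apart in opposite directions. Drug and steroid metabolism had 18 of 28 lower. UGT1A1, a glucuronidating enzyme, gave 24855 and 21.2 (-8.78), the cytochrome P450 CYP3A5 60887 and 115 (-8.66), and ADH1C 27127 and 73 (-7.97). CYP2W1 was the single higher gene, with 1156 on adipose, 71.7 on liver and 6.7 to 84.5 on the mixes (3.48).

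Among transcription factors of liver 11 of 19 were lower on adipose and 0 higher, with a median of -2.89. CEBPA and CEBPB also belong to the list of adipose transcription factors, and CEBPB is counted as lower in both. CREB3L3, a membrane-bound regulator of fasting genes, gave 8966 on liver and 56.9 on adipose (-6.61), HNF4beta 6356 and 107 (-5.49), NR1I3, a sensor of foreign compounds, 1676 and 7.3 (-5.33), and PROX1 5342 and 297 (-4.02). CEBPA, needed in both hepatocytes and adipocytes, was even (814 on adipose and 686 on liver, 0.24) and above the mixes (85.5 to 535) on both. NR1H3, the oxysterol receptor, gave 5335 and 8584 (-0.68), also above the mixes.

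Among 36 measured genes of the adipose transcription factor list 10 were higher on adipose and 2 lower, with a median of 0.79. The 10 include a membrane protein of preadipocytes that is not a transcription factor. Its difference fell to 0.56 when signals were floored at the pooled median. The early B cell factors EBF1 and EBF3, which act with PPARG in fat cell formation, led: EBF1 gave 2423 on adipose, 13.7 on liver and 255 to 1014 on the mixes (5.65), and EBF3 gave 1738, 8.6 and 110.4 to 249 (5.34). EBF2 differed less, at 304 and 126 (1.07). Mesenchymal regulators followed, with PRRX1 at 1104 and 114 (2.93), ZNF423 at 936 and 99.6 (2.85), and TWIST2 at 645 and 79 (2.57). KLF6 (8791 and 1272, 2.76) and KLF2 (7266 and 1207, 2.55) were also higher. The 2 lower genes were CEBPB (2050.1 and 9610.3, -2.21) and the coactivator PPARGC1A (129 and 786, -2.32); neither remained 4-fold with the spike-in scaling. RXRG, a partner of PPARG, was even at 734 and 706, and both exceeded the mixes (75.6 to 148).

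HOX genes record the position of a tissue along the body axis. Of 29 measured genes 18 passed, 6 were higher on adipose and 0 lower, with a median of 0.89 over all 29; the deposited values gave 12 higher and the filter at the 75th percentile 3. HOXA9 gave 1053 on adipose, 4.7 on liver and 144 to 928 on the mixes (4.77). HOXB6 gave 395 and 4.3 (3.44), HOXA7 1474 and 128 (3.21), and HOXB4 479 and 27.9 (3.03). HOXC9 (188 and 13.3, 2.20) and HOXD8 (166 and 9.4, 2.17) were fainter. HOXB6, HOXC9 and HOXD8 lost their 4-fold call when signals were floored at the pooled median. Neighbours in the clusters were not alike: HOXA10 gave 258 and 202 (0.30), and HOXA5 passed on neither array.

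**Figure D4:**
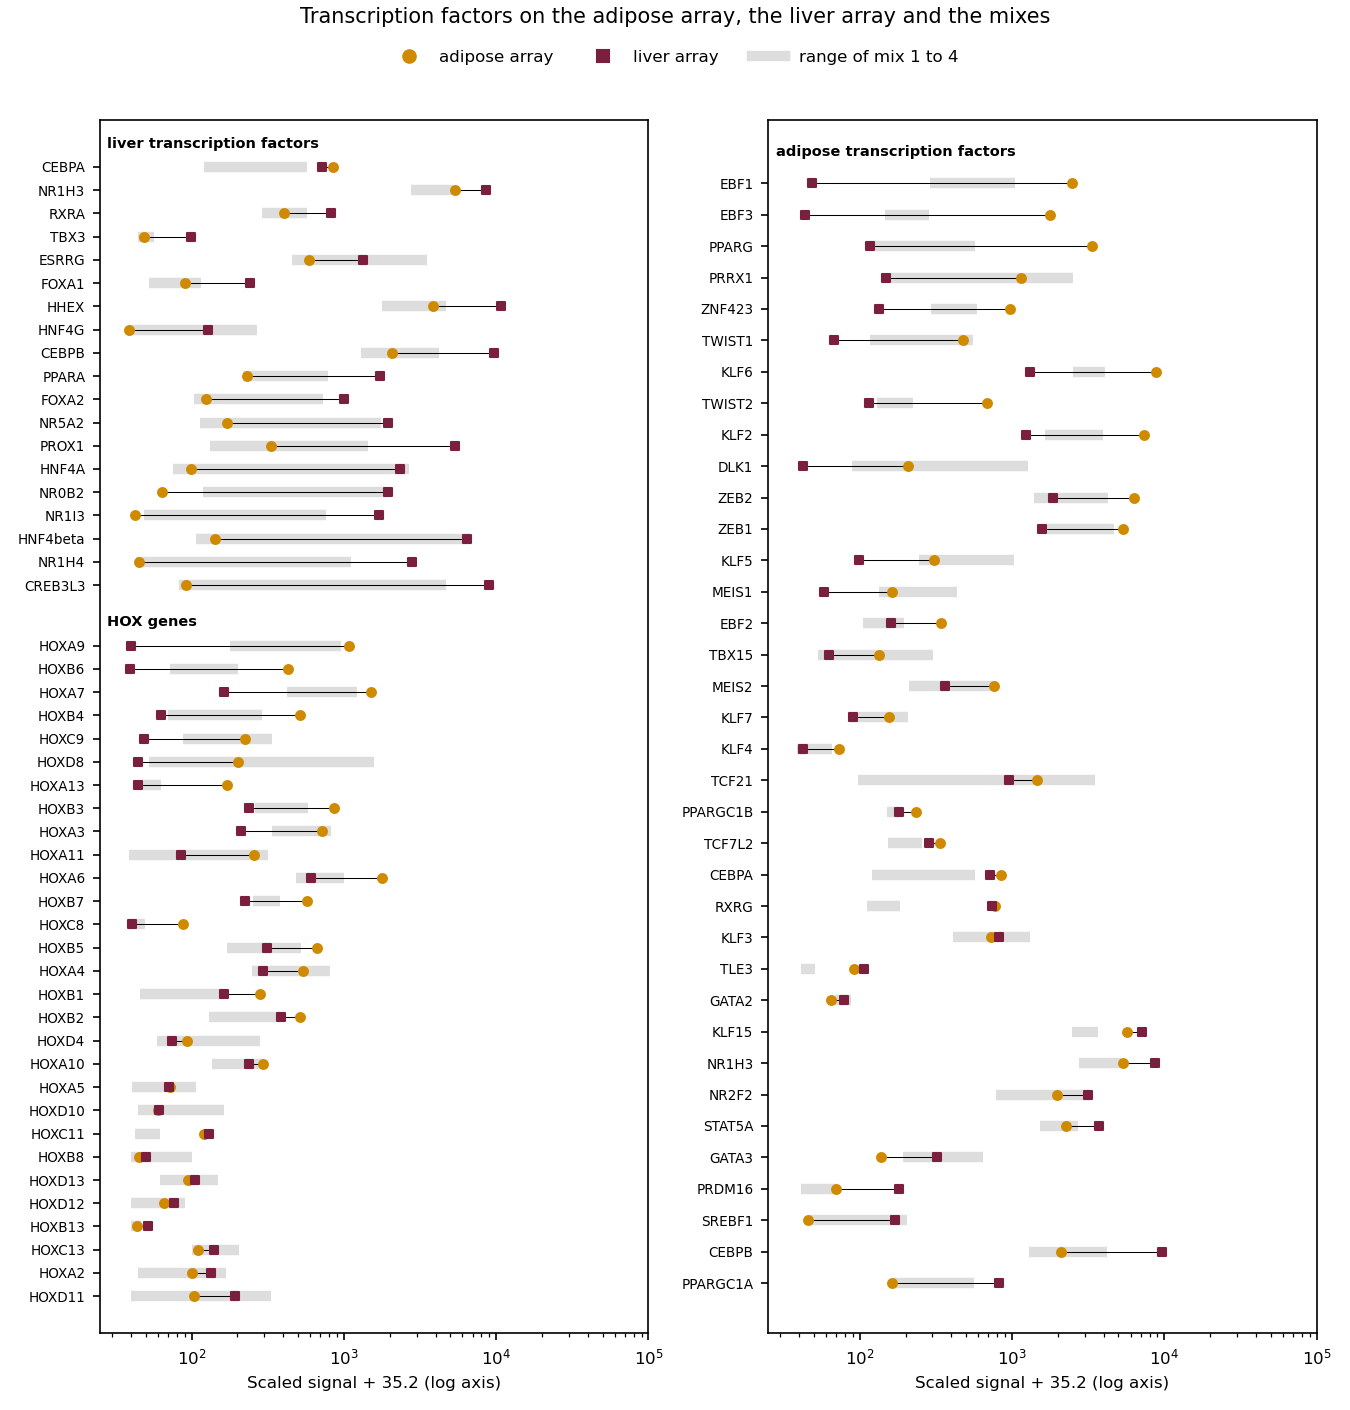
Scaled signal plus 35.2 (log axis) of liver transcription factors, HOX genes and adipose transcription factors on the adipose array (gold circles) and the liver array (dark red squares), with the range of the 4 mixes in grey. EBF1, EBF3, PPARG and HOXA9 lie far to the right on adipose and near the left edge on liver; CREB3L3, NR1H4 and HNF4A show the reverse, and CEBPA, RXRG and NR1H3 lie close together.

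Hormone and growth factor receptors were called in both directions. Of 51 receptors 7 were higher on adipose and 5 lower, with a median of 0.12; the deposited values gave 11 and 3. RET, the receptor tyrosine kinase for glial cell line-derived factors, gave 10426 on adipose, 84.6 on liver and 277 to 744 on the mixes (6.45). CDH13 (T-cadherin), which binds adiponectin, gave 11228 and 96.6 (6.42), and NPR3, which clears natriuretic peptides, 16314 and 206 (6.08). Of the 4 measured coreceptors of RET with a GFRA symbol 0 were called higher on adipose and 1 was called lower. Neither GFRA1, at 13.7 and 143 (-1.86), nor GFRA2, which passed on neither array, was the lower gene. On the liver side FGFR2 gave 4312 and 253 (-3.91), FGFR4 332 and 24.9 (-2.61), and the adrenergic receptor ADRA1B 4134 and 512 (-2.93).

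Of 55 growth factors and binding proteins 11 were higher on adipose and 8 lower, with a median of 0.34; 3 were lower with the deposited values and with the spike-in scaling. WNT5A gave 2859.9 and 143 (4.02), the platelet-derived growth factors PDGFD 2706 and 178 (3.69) and PDGFC 1211 and 97.1 (3.24), and the vessel factor ANGPT2 1844 and 145 (3.38). The liver side held circulating factors: AGT (angiotensinogen) gave 29859 on liver and 63.2 on adipose (-8.25), IGFBP1 6885 and 50.3 (-6.34), and IGF1 708 and 4.9 (-4.21). RARRES2 (chemerin) was bright on both but lower on adipose, at 7164 against 37347 (-2.38), a call lost with the deposited, the quantile and the spike-in scaling. AGT in mammals is also made by adipocytes, and here adipose lay under the pooled median.

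Matrix genes formed the broadest block on the adipose side. Of 45 matrix glycoproteins and processing enzymes 22 were higher and 0 lower, and of 33 collagens 11 were higher and 1 lower (median 1.24). The microfibril protein MFAP5 gave 11239 on adipose, 173 on liver and 600 to 1339 on the mixes (5.76). The proteoglycan BGN (biglycan) gave 4159.6 and 48.5 (5.65), EFEMP1 7874 and 128 (5.60), and FBLN2 6095 and 164 (4.94). Among collagens COL28A1 led, with 6140.2 on adipose, 58.4 on liver and 84.1 to 256 on the mixes (6.04), followed by COL6A3 at 22998 and 1455 (3.95). The fibrillar chain COL1A2 gave 31127 and 3889 (2.99), COL1A1 34934 and 7429.6 (2.23), and COL3A1 34753 and 13525 (1.36). The 6 passing probe sets of COL3A1 ranged from 0.79 to 4.45. COL1A1 and COL1A2 were brighter on at least 1 mix, so adipose was not the brightest array for them. COL24A1 was the lower gene (21.2 on adipose and 803 on liver, -3.89). COL6A2 was called higher at 2.51, but its other passing probe set gave -4.40, and its direction is uncertain.

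Markers of other cell types differed from list to list. The shares over all named genes were 5.14% higher and 5.6% lower. Fibroblast and stroma markers summed to a signal of 94843 on adipose, 22965 on liver and 31744 to 77731 on the mixes. PI16 gave 5364 and 91.9 (5.41), THY1 2031 and 23.2 (5.14), and MEOX2 6644 and 173 (5.01). Their part in the matrix differences was not tested. Smooth muscle and pericyte markers had 3 of 13 higher and 0 lower (median 1.06), led by DES at 974 and 119 (2.71). Skeletal muscle markers had 1 of 16 higher (6.2%, near the share over all named genes), ACTA1 at 2589.5 and 335 (2.83). Of the 16, 9 passed on neither array. Mesothelial markers had 2 of 10 higher, LRRN4 (460.4 and 52.8, 2.49) and KRT7 (1300.3 and 286, 2.06). Lung epithelium markers were higher on adipose for 4 of 7, with a median of 2.91 that fell to 1.09 when signals were floored at the pooled median. The surfactant proteins SFTPA1 and SFTPA2 gave 5436 and 179 (4.68) and 4912 and 325 (3.78), HOPX 28604 and 935 (4.88), and NKX2-1, a lung and thyroid regulator, 249 and 2.6 (2.91). NKX2-1 was no longer 4-fold apart with that floor or with the pseudocount at the median. All 4 were also above every mix on adipose. The other 3 members lay within 4-fold, the lowest at -0.38. HOPX made up 28604 of the list's summed signal of 41871 on adipose. The source of these signals was not tested.

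Endothelial markers split within their list. Of 26 genes 6 were higher on adipose and 2 lower, with a median of 1.30; 11 were higher with the spike-in scaling and 14 with the deposited values. PECAM1 gave 14480.2 on adipose, 935 on liver and 655 to 1617 on the mixes (3.90), CD34 2203 and 284 (2.81), SOX7 6023 and 917 (2.67), and EMCN 282 and 15.9 (2.63). LYVE1 and EDNRB ran the other way, at 313 and 2252 (-2.72) and 206 and 4000.4 (-4.06). In mammals LYVE1 marks the sinusoidal lining of the liver as well as lymphatic vessels. KDR was within 4-fold (361 and 494, -0.42). The part of capillary content in the LPL anchor GPIHBP1 was not tested.

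Of 18 macrophage and Kupffer cell markers 7 were lower on adipose and 0 higher, with a median of -1.75. The number lower depended on the scaling, with 4 for the quantile and the spike-in scaling and 2 for the deposited values, where MRC1 lost its call. TIMD4, a receptor for dying cells on resident macrophages, gave 12622 on liver, 224 on adipose and 299.8 to 820 on the mixes (-5.61), the scavenger receptor MARCO 15548 and 1253 (-3.60), and MRC1 3287 and 526 (-2.57). Their summed signal was 172333 on liver, 53664 on adipose and 21852 to 68669 on the mixes. C1q chains of complement and heme oxygenase HMOX1 are macrophage products as well, and the part of Kupffer cells in those differences was not tested. Lymphocyte markers had 1 of 20 higher (5.0%, near the 5.14% over all named genes), JCHAIN at 3583 and 724 (2.25). Red cell markers had 0 of 10 called either way. The lymphocyte and red cell medians were -0.47 and -0.77, both positive with the deposited values. Bile duct markers had 5 of 11 lower, among them CDH1 (E-cadherin) at 431 and 17611 (-5.24), and 1 higher, which is KRT7. AQP1 (8986 and 2635, 1.76) and CFTR (285 and 60.1, 1.75) leaned to adipose within 4-fold. The bile duct median was -0.57 and became 0.15 with the deposited values. Exocrine pancreas and nerve markers had none called of 12 each, but only 4 pancreas and 6 nerve markers passed.

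**Figure D5:**
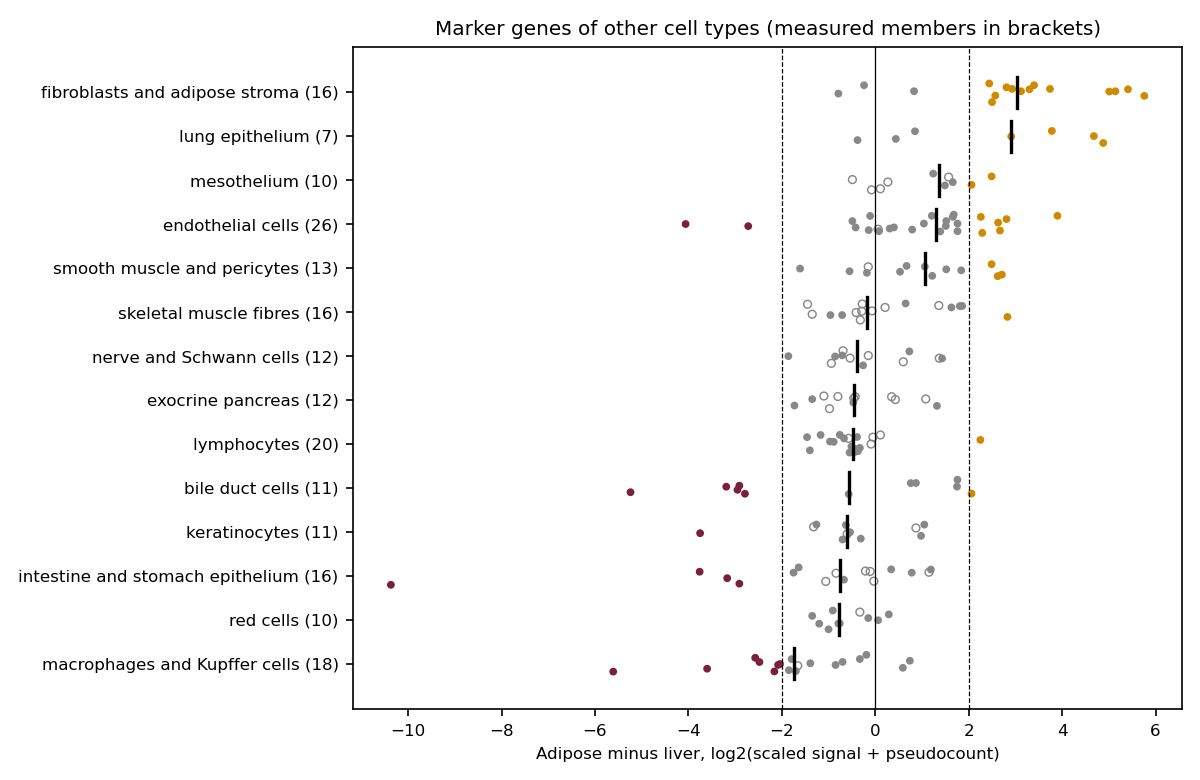
Difference between adipose and liver for each measured marker gene of other cell types, in log2(signal + 35.2); filled points passed on at least 1 array, open points on neither, colours mark at least 4-fold (dashed lines) and bars the list medians. Fibroblast and lung markers lie to the right, macrophage and Kupffer markers to the left, and endothelial markers on both sides.

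Few of the listed genes that every cell uses were at least 4-fold apart. The shares over all named genes were 5.14% higher and 5.6% lower. Of 60 ribosomal protein genes 0 were higher and 1 lower on adipose, RPS27L (2088 and 14084, -2.73), with a median of -0.34 that changed sign with the quantile, the spike-in and the deposited scaling (0.48 with the last). Mitochondrial respiration had 0 of 48 called, but its median of -0.81 lay below the lower quartile of all named genes (-0.61). With the deposited values the mitochondrial median was -0.0 and 1 member was higher. In the secretory pathway 1 of 41 was higher and 1 lower (2.4% each), not far from the shares over all named genes. XBP1, which expands the secretory apparatus, gave 3679.9 and 25273 (-2.77), and KDELR3 933 and 157 (2.33). The secretory median was -0.54 and became 0.27 with the deposited values. Cell cycle genes had a median of 0.35 with 1 of 30 lower (3.3%, also not far from the overall share), KIF20A (-2.14). The most even bright genes were PPIA (cyclophilin A), at 21992 on adipose and 22889 on liver (-0.06), RPL7, RPL26L1, H3F3C, RPL21 and RPL14.

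A second probe set offers a partial check on single genes, although it shares the RNA and the array. Of the 669 higher genes 324 had at least 2 passing probe sets; in 302 of these (93.2%) all had the same sign and in 158 (48.8%) all were at least 4-fold. Of the 728 lower genes 272 had at least 2, with 250 (91.9%) of the same sign and 137 (50.4%) all at least 4-fold. Across the 4684 genes with at least 2, which are not independent replicates, the differences of the brightest pair correlated at Pearson's r 0.795. Of the 203 called genes named in the text 81 had at least 2 passing probe sets, and in 54 of them all were at least 4-fold. In 27 at least 1 was not, and these genes are less certain. The other probe set had the opposite sign in 4, namely COL6A2 (-4.40), CP (0.65), EBF3 (-0.48) and KIF20A (0.49). The weakest probe set had the same sign but a smaller difference in ACACB (1.85), ACLY (-1.41), ADH1C (-0.98), ANXA2 (0.83), CYP2W1 (1.34), DGAT2 (1.84), FGFR2 (-1.43), GAMT (-1.36), HOXA7 (0.96), HOXA9 (1.83), LPIN2 (-1.43), OXCT1 (1.15), PCK2 (-1.50), PDGFD (1.64), PDK1 (1.70), PI16 (0.97), PPARGC1A (-1.47), PRRX1 (1.93), PTGER3 (1.69), RBP7 (0.96), SLC27A2 (-0.69), SOX7 (0.78) and TIMD4 (-1.09).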

How the data were processed

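Total RNA of adipose tissue, liver and 4 tissue mixes was hybridised to 1 Affymetrix chicken array each. The authors computed the deposited signal intensity values with MAS5, per the submitters' processing notes; they are linear intensities, and its version and scaling target were not given in the sources used here. From these, each array was divided by its 2% trimmed mean over 38439 probe sets (96 Affymetrix controls left out) and multiplied by 500. Values became log2(signal + 35.2). A probe set passed above 116.8 on at least 1 of the 2 arrays, which left 22262 and excluded 16177. Of the probe sets 27168 carry 1 gene symbol in the platform annotation, 177 several and 11094 none listed; only the first were named, and 26853 matched the reference table by gene ID. The brightest probe set over both arrays stands for each gene. With 1 array a side there is no test and no p-value. The labels do not say whether birds were pooled. The members and gene lists were chosen with earlier results of these data known. Lists were described by counts and medians over all measured members, whether they passed or not. A gene can belong to several lists, as do FABP4, CAV1 and CEBPB, so the list counts are not separate.

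Genes were named by rule: the 12 largest differences each way among called genes whose passing probe sets had the same sign, the 8 brightest on each array, the 6 most even among the 200 brightest, up to 4 members each way of each of 44 lists, and all members of the lipid, sugar, purine and transcription factor lists; COL6A2 was added after its values were seen. Alternatives were other scalings (deposited values, median, quantile over 6 arrays, spike-ins), pseudocounts (1, the median, a floor), filters (none, 75th percentile) and probe set rules. Where a dim signal lay under 116.8 that value was used for a lower bound of the ratio. No genome or sequence was used here, so no coordinates are given. Python 3.11.15, numpy 2.4.6, pandas 2.3.3 and matplotlib 3.10.9 were used.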

Additional observations from a re-analysis of the deposited data

How the results depend on the processing

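No paired analysis was possible because adipose and liver have 1 array each, and for the same reason no array could be left out; precision is limited by that number. Levelling the arrays mattered most. The 1501 probe sets and 669 genes at least 4-fold higher on adipose became 3431 and 1455 with the deposited values and 2381 and 1039 with the spike-in scaling, and the 1254 probe sets and 728 genes lower became 745 and 468 with the deposited values. The median difference of all named genes moved from -0.02 to 0.67 and 0.37. With a pseudocount at the median, 880 probe sets were higher, since it shrinks faint values. In the remaining combinations of these counts with the alternatives, the count stayed within 1.5 times. Of the 203 called genes named in the text, 189 stayed at least 4-fold in the same direction with the deposited values, 194 with the spike-ins, 193 with quantile normalization and 188 with the pseudocount at the median. Calls lost were ACACA, AQP7, CEBPB, FABP7, GPAM, KIF20A, LDHA, LYVE1, MRC1, PPARGC1A, RARRES2, RBP5, RPS27L and XBP1 with the deposited values; ACACA, CEBPB, FABP7, GPAM, KIF20A, LDHA, PPARGC1A, RARRES2 and RBP5 with the spike-ins; CEBPB, F3, JCHAIN, KRT7, LDHA, PDK1, RARRES2, RBP5, SCD and VLDLR with quantile normalization; ACACA, CIDEA, EMCN, F3, FGFR4, GPAM, HOXC9, HOXD8, KDELR3, KIF20A, KRT7, LRRN4, NKX2-1, PPARGC1A and TWIST2 with the pseudocount at the median. A floor at the median lost CIDEA, EMCN, FGFR4, HOXB6, HOXC9, HOXD8, KIF20A, LRRN4 and NKX2-1, and the mean of all probe sets COL6A2, CP, KIF20A, OXCT1, PDK1, PPARGC1A and SOX7. Some list counts also moved by over 1.5 times, beside those given above. With the deposited values 10 complement genes were lower (16 with the main scaling; main counts follow in brackets) and 3 cholesterol synthesis genes (5), while 4 coagulation genes (2), 18 collagens (11), 5 smooth muscle markers (3), 4 skeletal muscle markers (1), 5 mesothelial markers (2) and 3 bile duct markers (1) were higher. With the pseudocount at the median no mesothelial marker was called higher and 3 bile duct markers (5) were lower. The medians of complement (-1.76) and amino acid catabolism (-1.67) were under 4-fold with the deposited values. COL6A2 turned to -0.94 with the mean of all its probe sets and KIF20A to 0.49 with its brightest probe set over 6 arrays. Of 44 lists, fatty acid synthesis and sugar handling isoenzymes changed which direction held more called members with the deposited values and the spike-ins, and cell cycle genes with the former. The planned search of promoters for motifs was not run. Signals near the pooled median carry little information, and no detection calls were used.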

Other observations

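The genes in these paragraphs belong to none of the gene lists and were chosen after their values were seen. Several compact pathways outside the lists were brighter on liver. Both enzymes of creatine synthesis were far brighter on liver: GATM, which makes guanidinoacetate, gave 38.3 on adipose and 10981 on liver (-7.23 on the log2 scale), and GAMT, which methylates it, gave 20.7 and 10449.9 (-7.55). In serine synthesis PSAT1 gave 373 and 39692 (-6.60) and PSPH 249.6 and 58240.5 (-7.68). The carnitine enzyme BBOX1 gave 677 and 27502 (-5.27). GCH1, the first enzyme of tetrahydrobiopterin synthesis, gave 127 and 8622 (-5.74), and its feedback regulator GCHFR 69.3 and 3197 (-4.95). The partner subunits of the steroid and bile acid exporter, SLC51A and SLC51B, gave 33.7 and 5582 (-6.35) and 66.9 and 6954 (-6.10).

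Of 12 measured avian beta-defensin genes, antimicrobial peptides named AvBD, 7 were lower on adipose and 0 higher, against 5.6% lower over all named genes. AvBD9 (78.8 on adipose and 59011 on liver, -9.02), AvBD10 (93 and 39574, -8.27), AvBD8 (252 and 26294, -6.52) and AvBD13 (2.7 and 2964, -6.31) differed most, and LEAP2, another antimicrobial peptide, was also brighter on liver (33.2 and 6298, -6.53). AvBD10 reached 44961 on a mix, while AvBD13 stayed at or below 4.3 on every mix.

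Some receptors outside the lists were higher on adipose. AGTR1, the angiotensin receptor, gave 3722 on adipose, 132 on liver and 124 to 442 on the mixes (4.49). GPR1, a chemerin receptor in mammals, gave 11591, 519 and 1326 to 3423 (4.39). The prostaglandin receptor PTGER3 gave 4782 and 167 (4.57), and ACVR1C, an activin receptor, 1310.5 and 26.6 (4.44). An intermediate filament gene, an annexin and a galectin were also higher on adipose. VIM (vimentin) gave 31494 and 1273 (4.59), ANXA2 30203 and 1296 (4.51), and LGALS1A, the galectin, 18512 and 800.5 (4.47). Other members of the last 2 families went the other way. Of 9 measured genes with an ANXA symbol 2 were higher and 1 lower. Of 5 with an LGALS symbol 1 was higher and 2 were lower.

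Named genes were also grouped by the stem of their symbol. Symbols starting with LOC, containing orf or an H followed by a digit, or with a very short stem were left out. The ALDH1A and CDH genes, which split above, are therefore not counted. The 8065 genes that remained and shared a stem formed 1858 families. Of these, 50 had members at least 4-fold apart in both directions, 271 in the higher direction alone, 196 in the lower alone and 1341 in neither. A shared stem is a matter of naming and does not always mean a shared ancestor.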
